A study of Mus musculus with 10 samples.

Results

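Imprinted genes are copied from only one of the parental chromosomes, and many of them set how much a fetus and its tissues grow. The 10 imprinted growth genes described here were Igf2, Dlk1, Mest, Peg3, Nnat and Plagl1, which are known to be read from the paternal chromosome, and H19, Meg3, Grb10 and Cdkn1c, which in most mouse tissues are read from the maternal chromosome. They were picked by name out of the 41249 gene identifiers counted in each library. The question was whether the level of these genes in interscapular brown adipose tissue (iBAT), the heat-producing fat between the shoulder blades, differed between mice without the receptor tyrosine kinase AXL and wild-type mice. RNA sequencing was done on whole iBAT depots of 5 Axl KO and 5 WT mice. Axl KO mice lacked the gene constitutively in the whole body and WT mice were the controls. The knockout came from targeted embryonic stem cells carrying a reporter and selection cassette inside Axl, so every cell type of the depot, and every other organ, was affected. All 10 mice, of both groups, were recorded as fed a high-fat diet (HFD) for 24 weeks, begun at 6 to 8 weeks of age. They were kept at room temperature. The paper describes the sequenced mice as males with WT littermates as controls and gives a slightly longer diet. Its methods give a somewhat later starting age for Axl KO mice on HFD.

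In fetal life the paternally expressed genes of this group mostly promote growth and the maternally expressed ones mostly restrain it. Several lie side by side and share a control region that is methylated on only one parental copy. H19 and Igf2 form one such pair, and Dlk1 and Meg3 another. Most of these genes fall in level in muscle, liver and other organs after birth, and Dlk1 and Mest are known in fat as genes of preadipocytes and of expanding adipocytes. Gene counts add both parental copies, so the imprint itself was not read here.

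H19 and Mest, the genes with the widest spread between mice (values below), each carry a microRNA. The mature microRNAs are shown to identify these products; the capitals mark the seed, bases 2 to 8, and the sequences and positions are from RefSeq (GRCm38.p6). The H19 pair lies on the minus strand at chr7:142577112-142577133 and chr7:142577078-142577099, and the Mest pair on the plus strand at chr6:30741314-30741336 and chr6:30741354-30741375. The 4 seeds differ from each other. Mature microRNAs were not measured by this assay.
miR-675-5p (H19): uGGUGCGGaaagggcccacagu
miR-675-3p (H19): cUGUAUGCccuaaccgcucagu
miR-335-5p (Mest): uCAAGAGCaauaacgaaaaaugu
miR-335-3p (Mest): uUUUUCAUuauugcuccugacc

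Mest has more than one annotated start, and the 250 bases before a distal and a proximal one are shown because they differ in content. The capitals mark TGCCGC, read here on the opposite strand as GCGGCA, the letters that the imprint-keeping factor ZFP57 recognises when they are methylated. The distal window, chr6:30733256-30733505 on the plus strand, held 7 CpG and none of these motifs, and the proximal window, chr6:30737800-30738049 on the plus strand, held 14 CpG and 2 motifs. The motif was searched on both strands. It occurred in 8.68% of the 32851 promoter windows of the RefSeq table (GRCm38.p6) and in 4 of the 15 windows of the 8 imprinted growth genes that had one, belonging to 3 genes (Mest, Plagl1 and Meg3). Some windows of one gene overlap, and a match says only that the letters are present.
Mest distal: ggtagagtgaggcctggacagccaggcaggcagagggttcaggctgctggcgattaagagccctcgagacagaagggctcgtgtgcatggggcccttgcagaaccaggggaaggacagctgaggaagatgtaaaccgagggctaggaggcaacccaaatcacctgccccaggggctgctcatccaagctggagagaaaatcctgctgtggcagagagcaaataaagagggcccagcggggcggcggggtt
Mest proximal: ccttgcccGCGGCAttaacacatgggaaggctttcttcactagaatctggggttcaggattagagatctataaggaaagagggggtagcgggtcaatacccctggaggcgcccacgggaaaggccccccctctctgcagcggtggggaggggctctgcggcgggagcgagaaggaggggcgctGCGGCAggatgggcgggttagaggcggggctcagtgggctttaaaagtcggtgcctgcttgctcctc

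Total counts per library ran from 5431014 to 8214841 in Axl KO and from 5952427 to 9580215 in WT mice. Values are given as CPM, the usual normalized count, which is a gene's count scaled to a common library total after TMM correction of the totals. Axl itself ran from 0.437 to 2.01 CPM in Axl KO and from 38.2 to 52.4 CPM in WT mice, with every Axl KO value below every WT value. All 10 brown adipocyte markers, Ucp1 among them, were detected in every library. Their summed level was 9328 to 12416 CPM in Axl KO and 7284 to 9520 CPM in WT mice. The summed level of 10 skeletal muscle markers ranged from 5.73 to 3385 CPM in Axl KO and from 801 to 3942 CPM in WT mice, and the first 2 Axl KO mice had almost no muscle RNA.

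None of the 10 imprinted growth genes passed an adjusted p of 0.05 when the genotypes were compared. The quasi-likelihood test of edgeR took in 9 of them, since Plagl1 fell below the mean of 1 CPM required. Of these 9, 0 were called at that adjusted p, against 0.00728% of the 13733 genes tested (1 gene, Axl), and DESeq2 also called 0, against 0.0655% of all genes (9 genes). At an unadjusted p under 0.05, edgeR gave 1 of the 9, Meg3, against 8.38% of all genes. Axl KO values were higher for 3 and lower for 6 of the 9, where 49.7% of all genes were higher and 50.3% lower. Their median log2 fold change (Axl KO over WT) was -0.19, beside -0.00079 over all genes. In 0 of the 9 did the 5 Axl KO values all lie on one side of the 5 WT values, against 1.37% of all genes.

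**Figure D1:**
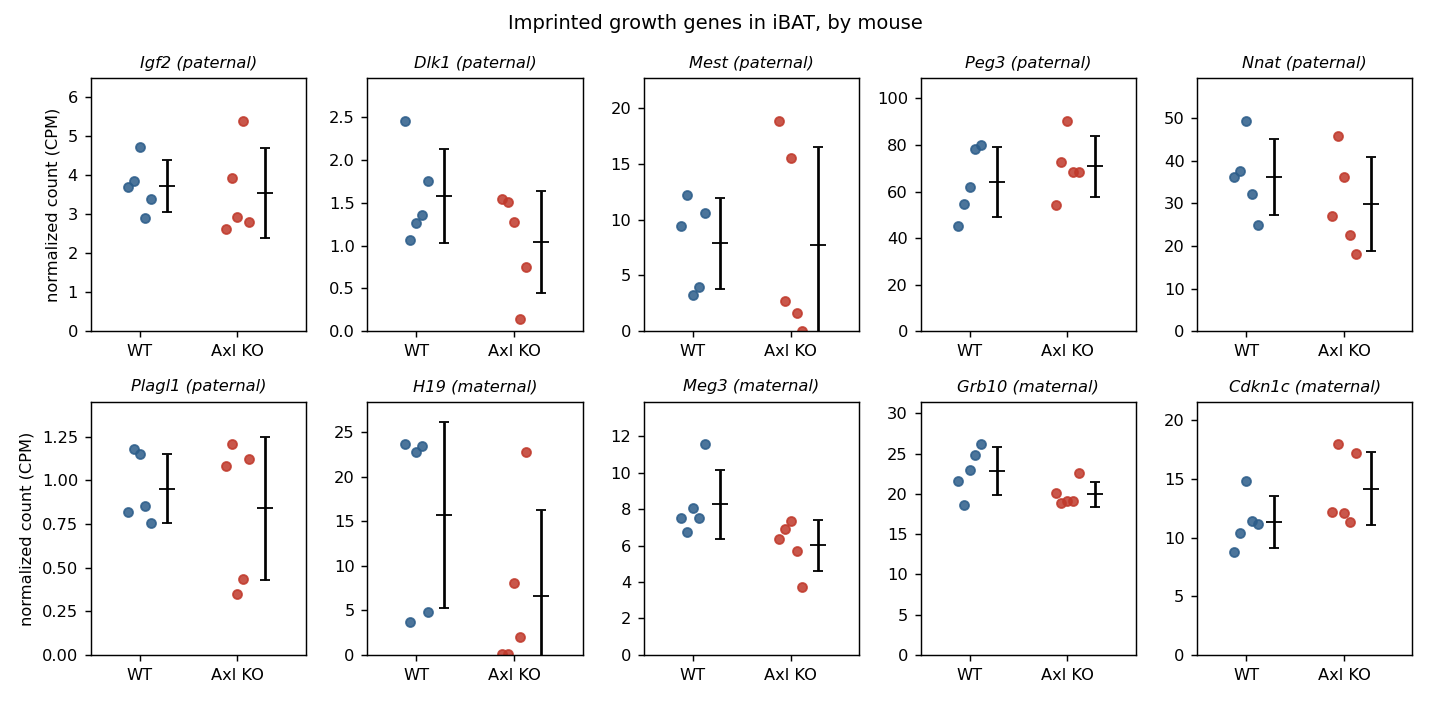
Normalized counts (CPM, vertical axis, starting at 0) of the 10 imprinted growth genes in each mouse, WT in blue and Axl KO in red, with the mean and SD of 5 mice as black bars cut at 0. Every gene's groups overlap, and H19 and Mest spread most widely.

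Igf2, a growth factor of the embryo that signals through the insulin and IGF1 receptors, was low in adult iBAT. It read 2.63, 3.92, 2.91, 5.39 and 2.80 CPM in the 5 Axl KO mice and 3.69, 3.85, 4.72, 2.90 and 3.39 CPM in the 5 WT mice. The WT values lay wholly inside the range of the Axl KO values. The log2 fold change was -0.08 (SE 0.22, 95% interval -0.56 to 0.40, edgeR adjusted p = 0.94). Igf2 (chr7:142650766-142666816, minus strand, GRCm38) shares 3596 exonic bases with Gm49394 on the same strand. The counts of these genes were equal in 7 of 10 mice and never differed by more than 1, so both entries held the same reads and neither can be read apart from the other.

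Dlk1, a membrane protein with EGF-like repeats that keeps preadipocytes from differentiating, stood near the limit of counting, with 1 to 18 counts a mouse. It read 1.55, 1.51, 1.28, 0.146 and 0.748 CPM in Axl KO mice and 2.46, 1.07, 1.27, 1.36 and 1.76 CPM in WT mice. Only Axl KO replicates 4 and 5 lay below all WT mice, and the other Axl KO mice overlapped them. The estimated log2 fold change was -0.56 (SE 0.41, 95% interval -1.45 to 0.33, edgeR adjusted p = 0.711). It fell in size to -0.28 without Axl KO replicate 4, the mouse with a single count.

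Mest, an enzyme-like protein of the endoplasmic reticulum whose mRNA is known to rise while fat depots expand, was the most variable paternally expressed gene. It read 18.9, 2.72, 15.5, 1.603 and 0 CPM in Axl KO mice and 9.44, 12.2, 3.22, 3.92 and 10.6 CPM in WT mice. Axl KO mice held both the highest pair and the lowest 3 values of the 10 mice. The count of 0 in Axl KO replicate 5 allows a level of up to 0.561 CPM (3 counts, counting error only). The mean was 7.74 ± 8.76 CPM in Axl KO and 7.87 ± 4.05 CPM in WT mice (SD, n = 5 each). The log2 fold change was 0.00 (SE 0.70, 95% interval -1.51 to 1.52, edgeR adjusted p = 1.0), an interval too wide to show that the groups were alike. The between-mouse coefficient of variation in the edgeR fit was 89.6% and exceeded that of 99.3% of the tested genes. Mest (chr6:30723547-30748465, plus strand, GRCm38) shares 912 exonic bases with Copg2, a coat protein subunit gene read from the opposite strand. Copg2 varied little, from 48.4 to 62.3 CPM in Axl KO and from 53.3 to 60.8 CPM in WT mice, and had 287 counts in the mouse with 0 counts of Mest.

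Peg3, a zinc-finger protein, had the highest CPM of the 10 genes. It read 54.3, 72.6, 90.5, 68.2 and 68.6 CPM in Axl KO mice and 45.2, 54.5, 62.2, 78.4 and 80.0 CPM in WT mice. The ranges largely coincided, with the highest value in an Axl KO and the lowest in a WT mouse. Its log2 fold change came to 0.15 (SE 0.16, 95% interval -0.20 to 0.50, edgeR adjusted p = 0.817), which shrank to 0.04 without Axl KO replicate 3, 0.05 without WT replicate 1 and 0.09 without WT replicate 2, and was 0.23 or 0.24 without Axl KO replicate 1 or WT replicates 4 or 5.

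Nnat, a small proteolipid of the endoplasmic reticulum membrane, read 26.9, 45.7, 36.1, 22.4 and 18.1 CPM in Axl KO mice and 36.3, 37.5, 49.4, 32.2 and 25.0 CPM in WT mice. Axl KO replicates 4 and 5 lay below all WT mice and the rest overlapped. The log2 fold change was -0.27 (SE 0.23, 95% interval -0.76 to 0.23, edgeR adjusted p = 0.759). It was -0.46 without Axl KO replicate 2, -0.14 without Axl KO replicate 5 and -0.12 without WT replicate 3.

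Plagl1, a zinc-finger transcription factor that binds other imprinted genes, had only 3 to 11 counts a mouse and 65 in all. It ranged from 0.349 to 1.21 CPM in Axl KO and from 0.754 to 1.18 CPM in WT mice. In a fit without the filter on low genes its log2 fold change was -0.25 (SE 0.39, edgeR adjusted p = 0.877). Axl KO replicates 3 and 4 lay below all other mice.

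H19, a long non-coding RNA made in fetal tissues and in adult muscle, differed most between mice. It read 0.155, 0.151, 8.04, 2.04 and 22.8 CPM in Axl KO mice and 23.7, 3.75, 22.8, 23.5 and 4.78 CPM in WT mice. Axl KO replicates 1 and 2 had a single count each, and replicate 5 stood level with the 3 highest WT mice. edgeR put the log2 fold change at -1.29 (SE 0.83, 95% interval -3.09 to 0.52, edgeR adjusted p = 0.677), with a between-mouse coefficient of variation of 104%, above that of 99.6% of tested genes. Without Axl KO replicate 5 the log2 fold change was -2.44, and without Axl KO replicate 1 or 2 it was -0.97.

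The level of H19 followed that of skeletal muscle RNA in the same depot. The summed CPM of 10 muscle genes (Acta1, Ckm, Myh1, Myh2, Myh4, Myh7, Tnnt3, Mylpf, Atp2a1 and Pvalb) was 24.3, 5.73, 1730, 617 and 3385 in Axl KO mice and 3262, 854, 3942, 3153 and 801 in WT mice. The mice lowest and highest in H19 were also low and high in muscle RNA. Across the 10 mice, on the log2(CPM + 0.5) scale, Pearson's r was 0.94 (permutation p = 4e-05, adjusted p = 0.0038 over 95 relations of genes with lists) and Spearman's rho was 0.88 (permutation p = 0.00161, adjusted p = 0.051). Without the first 2 Axl KO mice, which lie farthest from the median muscle level, r was 0.98, and on deviations from the genotype means it was 0.92. In the 8 mice with more than 100 CPM of muscle markers, H19 per 1000 CPM of muscle markers was 3.31 to 6.74 in 3 Axl KO mice and 4.39 to 7.46 in the 5 WT mice. The ranges of this ratio overlapped, and across these 8 mice muscle RNA varied by 6.39-fold. The relation with muscle RNA was chosen after seeing the data, which the adjusted p does not take into account.

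**Figure D2:**
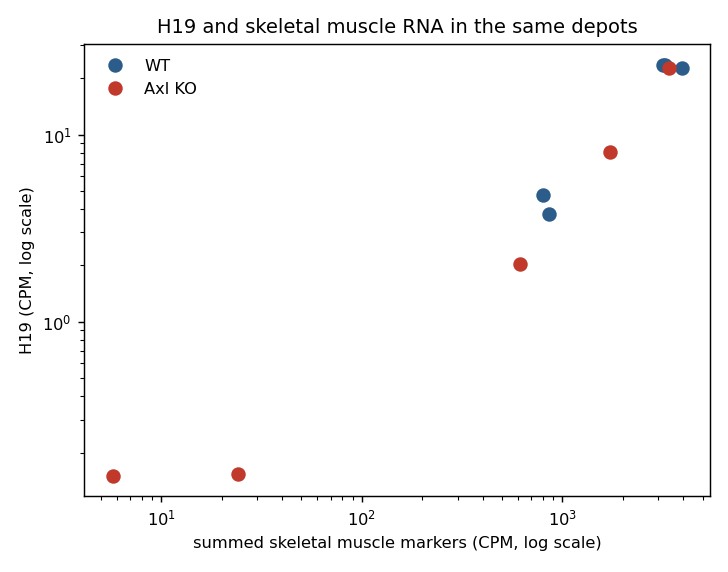
H19 (CPM, log scale) against the summed level of 10 skeletal muscle markers (CPM, log scale), 1 point a mouse, WT in blue and Axl KO in red. Both Axl KO mice with under 25 CPM of muscle markers had 1 count of H19 each.

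All 10 muscle markers were lower in Axl KO mice (50.3% of all genes were). Of the 10, 0 passed an adjusted p of 0.05 (edgeR) and 0 an unadjusted p under 0.05, and DESeq2 called 0 as well. Their median log2 fold change was -1.03. The markers were read in the same mice, so their directions do not count as separate observations. In Axl KO replicates 1 and 2 only Myh7 was at 0 counts. With muscle RNA as a covariate the log2 fold change of H19 was -0.19 (edgeR adjusted p = 0.866), and without those mice it was -0.56. Markers of muscle satellite cells were nearly absent, at 0 to 1.495 CPM in sum in Axl KO and 0.107 to 1.09 CPM in WT mice. H19 nevertheless gave r = 0.80 (permutation p = 0.00603, adjusted p = 0.0955) and rho = 0.85 (permutation p = 0.00281, adjusted p = 0.0534) with this sum. On deviations from the genotype means this r was 0.94. How muscle came to be in these depots cannot be told from the counts, and its part in the H19 difference between genotypes was not tested beyond these fits. In bulk tissue, fewer cells of a type and less RNA per cell cannot be told apart.

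H19 lies at chr7:142575529-142578143 (minus strand, GRCm38) and its exons contain the hairpin of miR-675. Mir675, which shares 84 exonic bases with H19 on the same strand, had 0, 0, 7, 0 and 12 counts in Axl KO and 26, 3, 17, 14 and 3 in WT mice. Gm27483, which shares 71 bases with H19 on the opposite strand, had 0 counts in all mice. The Mir675 counts were thus high and low in the same mice as H19, and a count there can be a read of the H19 transcript.

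Meg3, a long non-coding RNA of the Dlk1 domain, was the one imprinted growth gene with an unadjusted edgeR p under 0.05. It read 6.34, 6.94, 7.34, 5.68 and 3.74 CPM in Axl KO mice and 7.53, 6.74, 8.06, 7.50 and 11.6 CPM in WT mice. WT replicate 2 lay below 2 Axl KO mice, and otherwise every WT value exceeded every Axl KO value. The mean was 6.01 ± 1.41 CPM in Axl KO and 8.28 ± 1.90 CPM in WT mice (SD, n = 5 each). The log2 fold change was -0.45 (SE 0.19, 95% interval -0.86 to -0.03, edgeR adjusted p = 0.578), and the two-sided exact permutation test of the means gave p = 0.0397. It did not pass the correction. Without WT replicate 5, the highest mouse, the log2 fold change was -0.29, and without WT replicate 2 the groups no longer overlapped.

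Meg3 followed the summed level of markers of mural cells, the pericytes and smooth muscle cells of vessels. Their summed level over 7 genes was 649 to 780 CPM in Axl KO and 740 to 827 CPM in WT mice, with 1 of 7 higher in Axl KO and 0 of 7 called by edgeR. All 7 were detected in every mouse. Across the 10 mice r was 0.86 (permutation p = 0.00024, adjusted p = 0.0114 over the 95 relations) and rho was 0.89 (permutation p = 0.0011, adjusted p = 0.051). Without Axl KO replicate 5 and WT replicate 5 r was 0.76, and on deviations from the genotype means it was 0.77. Of the brown adipocyte markers, 9 of 10 were higher in Axl KO mice (49.7% of all genes), with 0 called by edgeR, 1 by DESeq2 and 5 at an unadjusted p under 0.05 (8.38% of all genes). Against their summed level Meg3 gave rho = -0.92 (permutation p = 0.00044, adjusted p = 0.0418) and r = -0.76 (permutation p = 0.0179, adjusted p = 0.159). Without Axl KO replicate 5 and WT replicate 3, the latter r was -0.60, and on deviations from the genotype means it was -0.59. Fibroblast and progenitor markers, at 298 to 581 CPM in Axl KO and 433 to 613 CPM in WT mice with 1 of 10 higher in Axl KO, gave r = 0.81 (permutation p = 0.00182, adjusted p = 0.0576) and rho = 0.70 (permutation p = 0.0304, adjusted p = 0.412). This r fell to 0.45 without Axl KO replicates 4 and 5 and was 0.73 on deviations from the genotype means. With summed endothelial markers Meg3 gave r = 0.70 (permutation p = 0.0381, adjusted p = 0.241), and 0.67 on deviations. With the summed fat expansion genes named below it gave r = 0.67 (permutation p = 0.0184, adjusted p = 0.159), and 0.58 on deviations. Meg3 was thus not related to mural markers alone. These relations of Meg3 with marker lists were chosen after seeing the data, which the adjusted p does not take into account. The part of these cell types in the Meg3 difference between genotypes, which did not pass the correction, was not tested.

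Mest was set against 5 genes known to move with fat expansion, namely Sfrp5, Bmp3, Npr3, Lep and Sncg. All 5 were lower in Axl KO mice (50.3% of all genes were), with a median log2 fold change of -0.37. Of the 5, 0 were called by edgeR or DESeq2 and 0 had an unadjusted p under 0.05. Sfrp5, a secreted WNT antagonist, ran from 0.729 to 3.71 CPM in Axl KO and from 1.36 to 3.85 CPM in WT mice. Mest and Sfrp5 gave r = 0.79 (permutation p = 0.00554, adjusted p = 0.0955) and rho = 0.87 (permutation p = 0.00247, adjusted p = 0.0534), and r was 0.79 again without the 2 farthest mice. The r of Mest was 0.75 with Sncg, 0.73 with Lep, 0.68 with Bmp3 and 0.58 with Npr3 (permutation p from 0.0111 to 0.0761, adjusted p from 0.132 to 0.317). The rho was 0.66, 0.65, 0.65 and 0.47 in that order (permutation p from 0.0431 to 0.178, adjusted p from 0.422 to 0.611). The summed level of the 5 genes gave r = 0.67 with Mest (permutation p = 0.028, adjusted p = 0.19). Its rho was 0.49 (permutation p = 0.154, adjusted p = 0.609). None of these relations passed the correction. With the summed fibroblast and progenitor markers Mest gave the same r as with Sfrp5, 0.79 (permutation p = 0.00554, adjusted p = 0.0955). The rho there was lower, at 0.62 (permutation p = 0.0611, adjusted p = 0.452), and r fell to 0.31 without Axl KO replicates 4 and 5. For the fat expansion genes, r without the 2 farthest mice was 0.52 with Sncg, 0.69 with Lep, 0.93 with Bmp3 and 0.45 with Npr3.

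**Figure D3:**
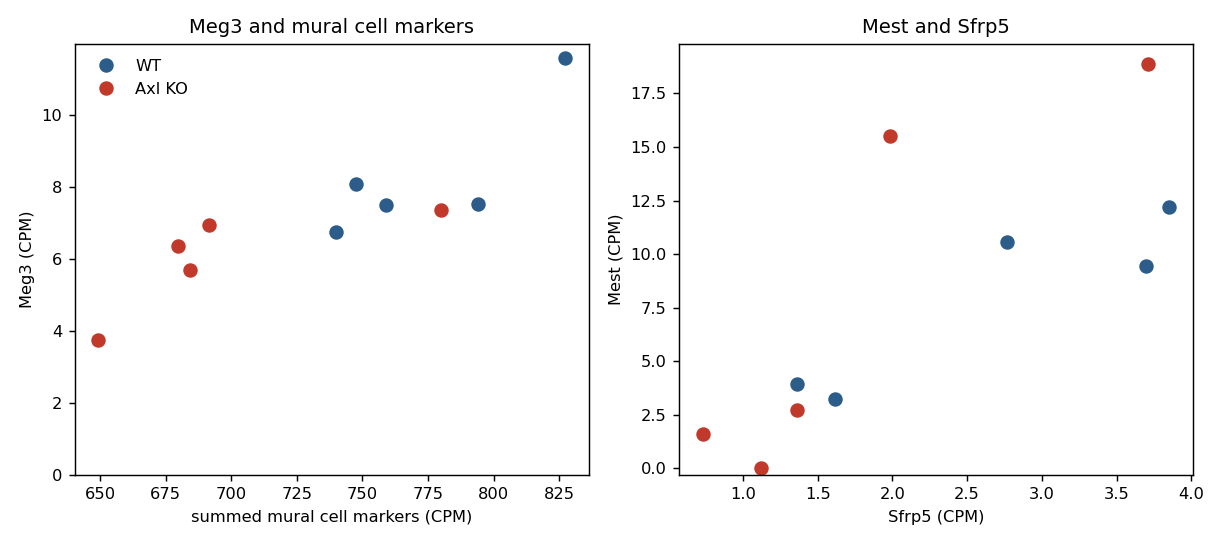
Left, Meg3 (CPM) against the summed level of 7 mural cell markers (CPM); right, Mest (CPM) against Sfrp5 (CPM), 1 point a mouse, WT in blue and Axl KO in red on linear axes, the horizontal ones not starting at 0. The lowest Meg3 (3.74 CPM) and the highest (11.6 CPM) sit at the lowest and highest mural marker levels.

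Grb10, an adaptor protein that damps insulin and IGF1 receptor signaling, was the steadiest of the group. It read 20.1, 18.9, 19.1, 19.1 and 22.6 CPM in Axl KO mice and 21.6, 18.6, 22.9, 24.9 and 26.2 CPM in WT mice. The lowest value was in a WT mouse, and 3 WT mice lay above all Axl KO mice. This gave a log2 fold change of -0.19 (SE 0.10, 95% interval -0.41 to 0.02, edgeR adjusted p = 0.609). Its between-mouse coefficient of variation was 10.02%, beside a median of 11.01% over all tested genes.

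Cdkn1c, which encodes the cell-cycle inhibitor p57, was the only maternally expressed member with a higher mean in Axl KO mice. It read 12.2, 18.0, 12.1, 11.4 and 17.2 CPM in Axl KO mice and 8.76, 10.4, 14.9, 11.4 and 11.2 CPM in WT mice. Axl KO replicates 2 and 5 lay above all WT mice and the other values overlapped. The log2 fold change was 0.31 (SE 0.17, 95% interval -0.05 to 0.68, edgeR adjusted p = 0.629), and the two-sided exact permutation test of the means gave p = 0.151. Axl lies on chromosome 7, as do Peg3 at 19 Mb from it, H19 at 116.8 Mb, Igf2 at 116.9 Mb and Cdkn1c at 117.7 Mb.

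**Figure D4:**
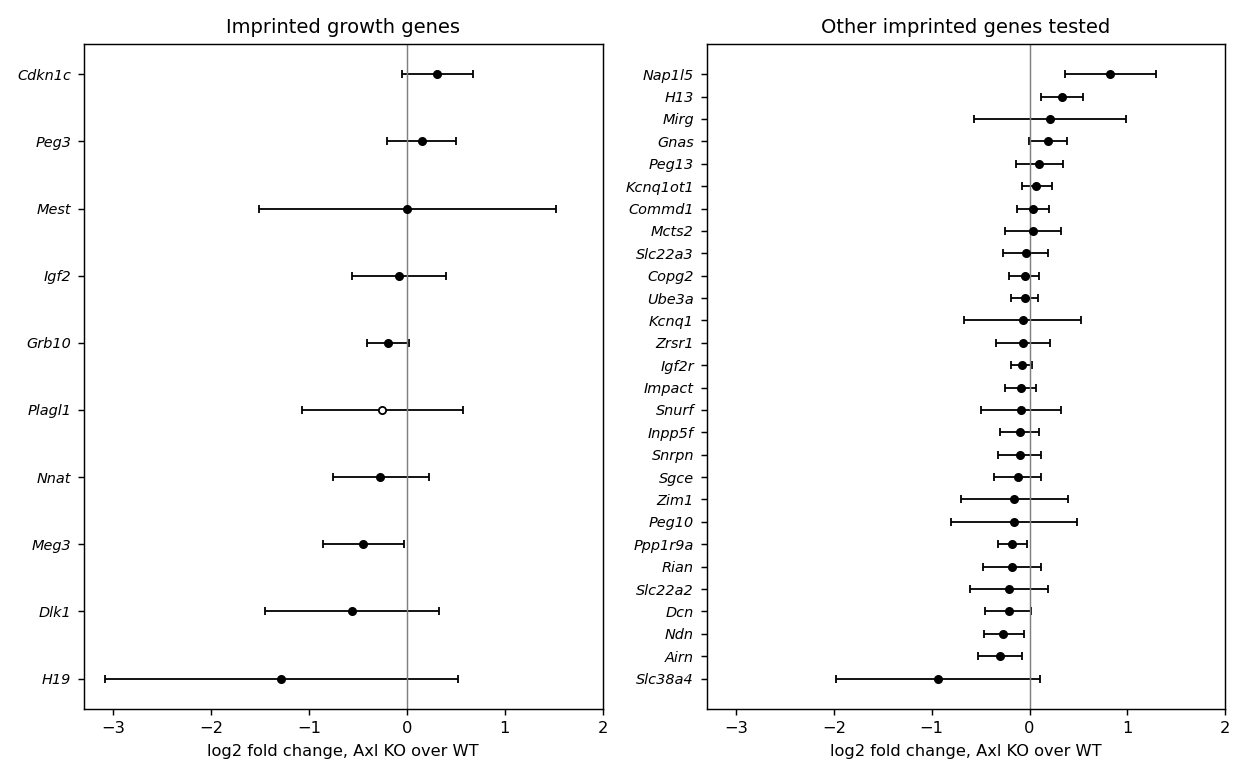
Log2 fold change of Axl KO over WT (horizontal axis) with 95% intervals from edgeR for the 10 imprinted growth genes (left; Plagl1, open, from the fit without a filter) and the 28 other imprinted genes tested (right). The intervals of H19 and Mest are the widest on the left.

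Levels of different genes were set side by side as CPM per kilobase of annotated exon. The length took in the exons of all annotated transcripts of a gene, used in iBAT or not, so the order is only approximate. Nnat stood highest with a mean of 18.0 ± 5.48 over the 10 mice (SD) and exceeded Cdkn1c in 10 of 10 mice. Cdkn1c (6.25 ± 1.46), Peg3 (5.06 ± 1.03), H19 (4.54 ± 4.31), Grb10 (2.35 ± 0.295) and Mest (1.98 ± 1.63) followed, and neighbours in this order traded places in 3 to 5 of the 10 mice. Igf2 (0.633 ± 0.157) exceeded Meg3 (0.395 ± 0.109) in 9 of 10 mice, Meg3 exceeded Dlk1 (0.233 ± 0.108) in 9, and Dlk1 exceeded Plagl1 (0.115 ± 0.0396) in 8. Before division by length the mean of Meg3 (7.14 CPM, 18089 bases of exon) was above that of Igf2 (3.62 CPM, 5723 bases). H19 ran from 0.0613 to 9.62 on this scale, from below the mean of Plagl1 to above every value of Cdkn1c.

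**Figure D5:**
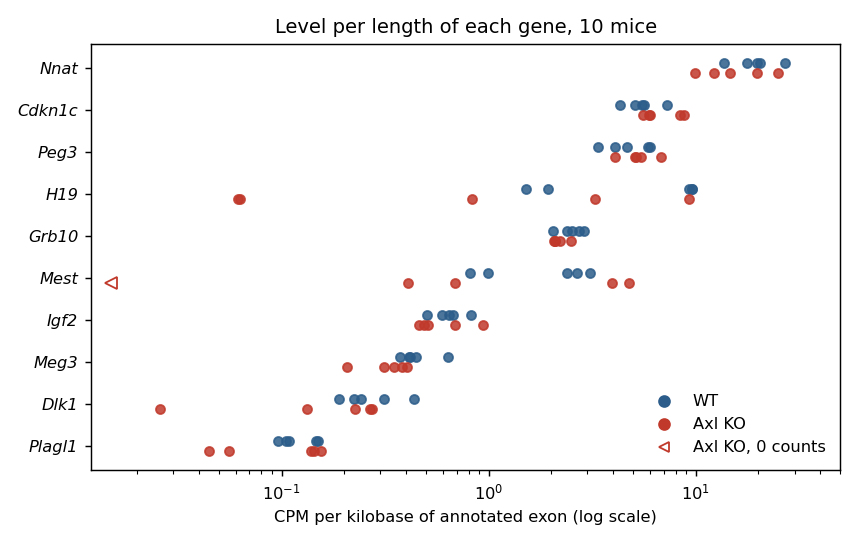
CPM per kilobase of annotated exon (log scale) of the 10 genes in 10 mice, WT in blue and Axl KO in red, ordered by mean level. The open triangle marks the Axl KO mouse with 0 counts of Mest, placed at the left edge since 0 has no place on a log axis.

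Neighbouring imprinted genes did not rise and fall together to a degree that passed the correction. Over the 36 pairs of tested members the lowest adjusted p was 0.867. H19 and Igf2, which share an imprinting control region, gave r = -0.06 (permutation p = 0.875) and rho = -0.24 (permutation p = 0.514) across the 10 mice. Dlk1 and Meg3 gave r = 0.55 (permutation p = 0.125) and rho = 0.61 (permutation p = 0.0659), and r was 0.83 without Axl KO replicate 4 and WT replicate 1. H19 and Cdkn1c gave r = -0.19 (permutation p = 0.59) and rho = -0.30 (permutation p = 0.408), and Igf2 and Cdkn1c gave r = -0.05 (permutation p = 0.901) and rho = -0.14 (permutation p = 0.705). Without the 2 farthest mice r was -0.24 for H19 and Igf2, 0.30 for H19 and Cdkn1c and 0.04 for Igf2 and Cdkn1c. With 10 mice only close relations could pass.

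The genes whose levels moved most like each member were found from deviations from the genotype means of log2(CPM + 0.5) over the 10 mice, among 13732 other genes, and are given as a description. For H19 they were Asb2 (r = 0.997) and Trim72 (r = 0.997), both known as genes of striated muscle, and Gm42417 (r = 0.996). For Nnat they were the ribosomal protein genes Rps4x (r = 0.973) and Rpl7 (r = 0.959) and the ribosome-bound Rack1 (r = 0.965). Ribosomal protein genes made up 12 of the 20 nearest to Nnat and 0.619% of all tested genes (85 genes), a count chosen after these names were seen. For Mest they were Hebp1 (r = 0.943), Nop56 (r = 0.926) and Klhl29 (r = 0.922). Peg3 had Snhg14, the host transcript of the imprinted Snrpn domain, in second place behind Gm28051. Dlk1 was nearest to Axl itself (r = 0.94), with r = 0.90 without Axl KO replicate 4, the mouse with the fewest counts of each. In Axl KO mice both were near the limit of counting, Axl with 3 to 15 counts a mouse and Dlk1 with 1 to 11. Meg3 was nearest to Vamp7, Grb10 to Itpr3, Cdkn1c to Rbp7 and Igf2 to the overlapping Gm49394.

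The wider set of imprinted genes was also mostly lower in Axl KO mice, and none was called. Of 46 others listed, 28 were tested, with 8 higher and 20 lower (49.7% and 50.3% of all genes) and a median log2 fold change of -0.08. Of these 28, edgeR and DESeq2 each called 0 at an adjusted p of 0.05, and edgeR gave 5 at an unadjusted p under 0.05, where 8.38% of all tested genes were. The groups did not overlap for 2 of the 28, H13 and Airn, against 1.37% of all genes. H13, a signal peptide peptidase gene, read 80.7, 62.9, 61.5, 66.5 and 88.8 CPM in Axl KO mice and 59.1, 56.5, 53.7, 56.4 and 59.7 CPM in WT mice. All Axl KO values were above all WT values. H13 had a log2 fold change of 0.33 (SE 0.10, edgeR adjusted p = 0.572). Airn, the non-coding RNA that silences Igf2r on the paternal chromosome, read 8.04, 10.6, 9.20, 10.8 and 8.41 CPM in Axl KO mice and 11.2, 11.9, 11.3, 11.6 and 12.2 CPM in WT mice. The highest Axl KO value was under the lowest WT value, with a log2 fold change of -0.30 (SE 0.10, edgeR adjusted p = 0.572). Both gave the smallest p that an exact permutation test of 5 against 5 can give, 0.00794.

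Nap1l5, a paternally expressed nucleosome assembly gene, had the lowest unadjusted p of the 28. It ran from 3.77 to 6.54 CPM in Axl KO and from 2.35 to 3.77 CPM in WT mice. The ranges touched at 1 mouse of each group, and the log2 fold change was 0.82 (SE 0.21, edgeR adjusted p = 0.572). Ndn had a log2 fold change of -0.27 (SE 0.09), Ppp1r9a of -0.18 (SE 0.07) and Dcn, which is imprinted in placenta and made by fibroblasts, of -0.21 (SE 0.11), with edgeR adjusted p from 0.572 to 0.608.

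None of the listed neighbours that share a domain with a member was called. Rian and Mirg, non-coding RNAs downstream of Meg3, had log2 fold changes of -0.18 (SE 0.14) and 0.21 (SE 0.36), and Rtl1 of the same domain had 0 counts in all mice. Kcnq1ot1, the non-coding RNA that silences Cdkn1c on the paternal chromosome, had 0.07 (SE 0.07), and its neighbour Phlda2 had 0 counts in all mice. Zim1 beside Peg3 had -0.16 (SE 0.25), Usp29 on its other side had only 4 counts in all, and Copg2 had -0.05 (SE 0.07). Gnas, which lies in no member's domain and encodes the stimulatory G protein subunit of the β-adrenergic pathway from a complex imprinted locus, had 0.19 (SE 0.09, edgeR adjusted p = 0.601).

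The receptors and partners that carry Igf2 signals gave 7 tested genes of 9, with 3 higher and 4 lower in Axl KO mice, 0 called by edgeR or DESeq2 and 0 at an unadjusted p under 0.05. Igf2r, the maternally expressed receptor that clears Igf2, ran from 186 to 202 CPM in Axl KO and from 196 to 206 CPM in WT mice. These ranges gave a log2 fold change of -0.08 (SE 0.05, edgeR adjusted p = 0.663). Igf1 had -0.19 (SE 0.16), its receptor Igf1r -0.21 (SE 0.10) and the docking protein gene Irs1 -0.17 (SE 0.10). Insr, the insulin receptor gene, had 0.12 (SE 0.07), Irs2 had 0.15 (SE 0.34) and Igf2bp2, which binds Igf2 mRNA, had 0.21 (SE 0.22). The edgeR adjusted p of these 6 genes ran from 0.602 to 0.924.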

How the data were processed

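RNA of whole iBAT depots of 5 Axl KO and 5 WT mice was sequenced. The authors deposited 1 table per mouse of raw counts for 41249 Ensembl gene identifiers, 41163 of them in GENCODE M21 (GRCm38), which gave names and coordinates. The study's methods name Trim Galore, hisat2 and rRNA depletion, while the submitters' processing notes name Trimmomatic 0.36, STAR 2.6.1c and GRCm38.p5 and the labels polyA RNA; the counting program is not given in the sources used here. Overlapping genes on one strand held the same reads (Igf2 and Gm49394).

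Counts were TMM-scaled and genes with a mean above 1 CPM (13733) were tested with edgeR 4.0.16 (quasi-likelihood test, no covariate, Benjamini-Hochberg over all of them) in R 4.3.3, with DESeq2 1.42.0 as an alternative. Exact permutation tests compared mean CPM, two-sided, and correlations used 100000 permutations in scipy 1.17.1. Other alternatives were RLE size factors, unscaled totals, other filters, a robust fit, a replicate block, muscle RNA as a covariate and leaving out each mouse. No 2 libraries agreed within counting noise (lowest chi-square per gene 5.46), and p-values measure the spread between these mice. Replicate numbers are not stated to pair mice.

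The members and all lists were chosen with earlier results of these data known. Named genes were the 10 members, Axl, 10 set neighbours and related imprinted genes (Gnas among them), the 6 imprinted genes of lowest p outside these, IGF axis and fat expansion genes above 1 CPM and the genes most like each member. Of that rule, Igf2bp1 and Igf2bp3 fell below 1 CPM. The upper limit given for a count of 0 covers counting error only. The intervals of log2 fold changes come from the edgeR fit and include the spread between these mice. Relations with marker lists, and the fit without both mice with almost no muscle RNA, were chosen after seeing the data.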

Additional observations from a re-analysis of the deposited data

Results flagged for a closer look

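Meg3 was 11.6 CPM (92 counts) in WT replicate 5, where the nearest WT mouse had 8.06 CPM. The gap is 0.727 of the range of the WT mice, above the 0.71 that marks a sample standing far from the others in a group of 5. Of 20 groups examined (10 genes in both genotypes) this was the only one, and chance flags about 1 in 20.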

How the results depend on the processing

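No imprinted growth gene passed an adjusted p of 0.05 under any of 20 alternative fits, the lowest being 0.267 for Meg3 without Axl KO replicate 3. Of 180 fold changes of members under these fits, 169 kept their direction. Over all genes DESeq2 called 9, DESeq2 without a filter 4 (an alternative chosen after seeing the data), and edgeR 1 whichever mouse was left out. The number of members whose groups did not overlap ran from 0 to 1 with a mouse left out, the 1 being Meg3 without WT replicate 2. The log2 fold change of Igf2 ran from -0.28 to 0.02 with a mouse left out (0.0088 without Axl KO replicate 1) and that of Mest, reported as 0.00, from -0.56 to 0.29 (-0.43 and -0.56 without Axl KO replicates 3 and 1, -0.20 and -0.15 without WT replicates 3 and 4). Mest was at -0.29 with the muscle covariate, -0.35 without both mice with almost no muscle RNA, -0.02 with DESeq2 and -0.02 with DESeq2 and no filter. The cause was not tested. The r of H19 with Cdkn1c was 0.30 without the 2 farthest mice and 0.12 on deviations from the genotype means, and that of Igf2 with Cdkn1c 0.04 and 0.04.

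With the replicate number as a block, Mest was at -0.40 and H19 at -1.77, and edgeR called 1 gene and 0 members, so no call changed. Same-numbered mice had correlations of -0.355 to 0.371 between their deviations, and 1 of 5 numbers matched itself best, so the numbers were not taken as pairs. With 1 to 18 counts a mouse Dlk1, and with 3 to 11 Plagl1, are limited by depth, and the stricter filter of edgeR dropped both.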
